A study of Mus musculus with 3 samples.

Results

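The 10 genes described here encode the actin filament machinery typical of smooth muscle: the actins Acta2 and Actg2, the myosin chains Myh11 and Myl9, the calponin family proteins Tagln and Cnn1, the caldesmon Cald1, the tropomyosins Tpm1 and Tpm2, and the actin crosslinker Actn1. They were taken from the 22180 genes that had a row of their own in the value table, and each of the 10 had exactly 1 such row. The genes were chosen by function with the signals of these 3 arrays already known, so every difference between arrays given for them is a description and none was tested. RNA came from STHdh cells, striatal progenitor cells of knock-in mice (strain C57BL6/J) that are immortalized and carry a humanized Htt exon 1 encoding 111 or 7 glutamine repeats on both alleles. Q111-ASOs were STHdhQ111/Q111 cells given a pair of morpholino ASOs, each at 3 μM, against the splice sites of Rest exon 3, Q111-Control were STHdhQ111/Q111 cells given a non-specific morpholino, and Q7-Control were STHdhQ7/Q7 cells given that same control. All cells were grown at 33°C with 200 μg/ml G418, received 6 μM Endo-Porter to carry the oligo, and were harvested at 48 hrs. Each group was 1 RNA sample on 1 Affymetrix Mouse Gene 2.0 ST array, and each genotype was 1 cell line, so genotype and any other difference between the lines cannot be told apart.

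In smooth muscle, actin filaments slide along myosin once the regulatory light chain of myosin is phosphorylated, while tropomyosin, caldesmon and calponin lie along the filament and restrain the contact. Acta2, Actg2, Myh11, Tagln and Cnn1 are classical smooth muscle markers, and Acta2 and Tagln are also made by myofibroblasts and other cells under tension. Tpm1, Tpm2, Cald1, Myl9 and Actn1 have products in many non-muscle cells, where they build stress fibres. Most of these genes are controlled by serum response factor (SRF), which binds the CArG box and works with myocardin in smooth muscle and with myocardin-related factors in other cells.

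The values are log2 signals per gene, in which a difference of 1 is 2-fold. Over all 41345 rows of the table the median was 6.00 in Q111-ASOs, 6.03 in Q111-Control and 5.97 in Q7-Control. For 35.5% of genes the 3 arrays carry exactly the same value, and how the processing produced such ties was not tested. Because each group is a lone array, no replicate error exists, precision is limited by the number of arrays, and genes were counted past 2-fold, the criterion of the study. Over genes, log2 differences had an SD of 0.50 for Q111-Control minus Q7-Control and 0.13 for Q111-ASOs minus Q111-Control. The Q111-Control array enters both differences, which share its error. Htt had a log2 signal of 8.97 in Q111-ASOs, 9.05 in Q111-Control and 9.85 in Q7-Control. Rest had 9.33 in Q111-ASOs, 9.16 in Q111-Control and 9.16 in Q7-Control, and Gapdh had 13.04 on each array.

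Of the 10 contractile genes, 1 was over 2-fold lower in Q111-Control than in Q7-Control, where 2.53% of all genes were, and 0 were over 2-fold higher, where 2.03% of all genes were. The gene was Acta2, the smooth muscle alpha-actin. A further 5 genes were lower in Q111-Control within 2-fold (Myl9, Tagln, Tpm1, Actn1 and Actg2), and the other 4 (Myh11, Cnn1, Cald1 and Tpm2) were equal on all 3 arrays. The median log2 difference of the 10 genes was -0.28, against 0.00 over all genes, and -0.11 without Acta2. Set against Q111-Control, Q111-ASOs had 0 of the 10 over 2-fold lower and 0 over 2-fold higher, where 0.0271% and 0.104% of all genes were.

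**Figure D1:**
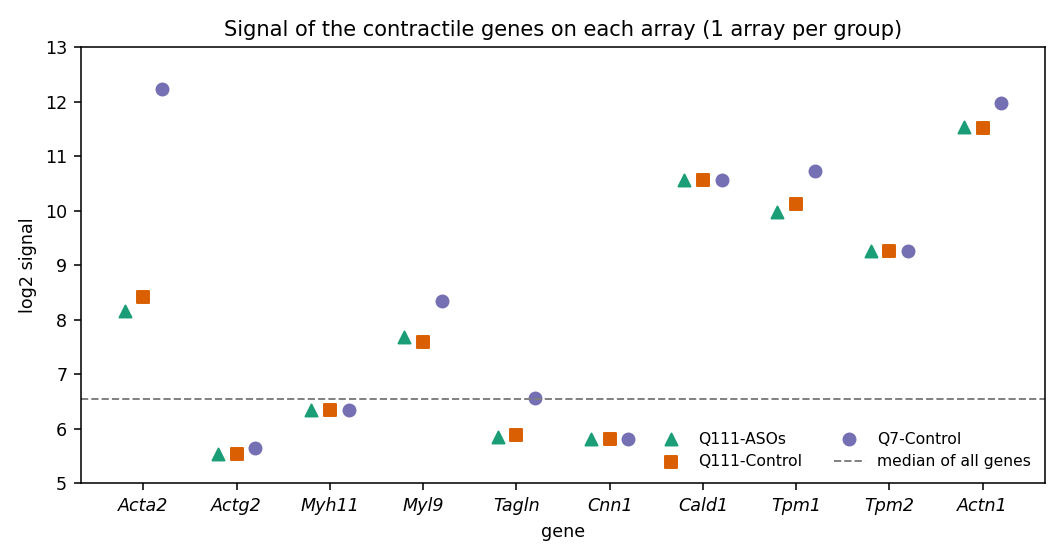
Log2 signal of each contractile gene (horizontal axis) on the arrays of Q111-ASOs (triangles), Q111-Control (squares) and Q7-Control (circles), 1 array per group, with a dashed line at 6.55, the median over all genes of the mean signal. Acta2 stands at 8.16 and 8.42 on the STHdhQ111/Q111 arrays and at 12.23 in Q7-Control, while the points of Myh11, Cnn1, Cald1 and Tpm2 lie level.

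Acta2 had a log2 signal of 8.16 in Q111-ASOs, 8.42 in Q111-Control and 12.23 in Q7-Control. The Q7-Control array was far above both arrays of STHdhQ111/Q111 cells, which lay close together. The log2 difference of -3.82 for Q111-Control minus Q7-Control is 14.1-fold, and only 13 of the 22180 genes had a lower one, which puts it in the lowest 0.0631%. All 3 signals of Acta2 were above 6.55, the median over genes of the mean signal, so this fold does not rest on a signal near the bottom of the scale. Q111-ASOs lay farther from Q7-Control than Q111-Control did, with a log2 difference of -0.26 from Q111-Control (1.20-fold lower) that 2.06% of all genes matched or exceeded downwards. Q111-ASOs minus Q7-Control was accordingly -4.07, or 16.8-fold. In this difference, which reuses both of those arrays, Acta2 was again the 1 contractile gene over 2-fold lower and 0 were over 2-fold higher, where 2.25% and 2.27% of all genes were.

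Actg2, the gamma-actin of visceral smooth muscle, had 5.53 in Q111-ASOs, 5.53 in Q111-Control and 5.64 in Q7-Control, a log2 difference between the lines of -0.11. The actin genes share most of their coding sequence, and how far probes of this array tell their transcripts apart was not tested. The striated muscle actins Acta1 and Actc1 differed by 0.01 and -0.07 between the lines and the cytoplasmic actins Actb and Actg1 by 0.02 and -0.41. Acta2 was thus the 1 of 6 actin genes whose signal differed by more than 2-fold. Actg2 and Actc1 (between 5.15 and 5.22) were below 6.55, the median over genes, on every array. The small differences of Actg2 and Actc1 are therefore a weak comparison. Acta1, between 6.92 and 7.04, was not far above that median, so its small difference carries little more weight.

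**Figure D2:**
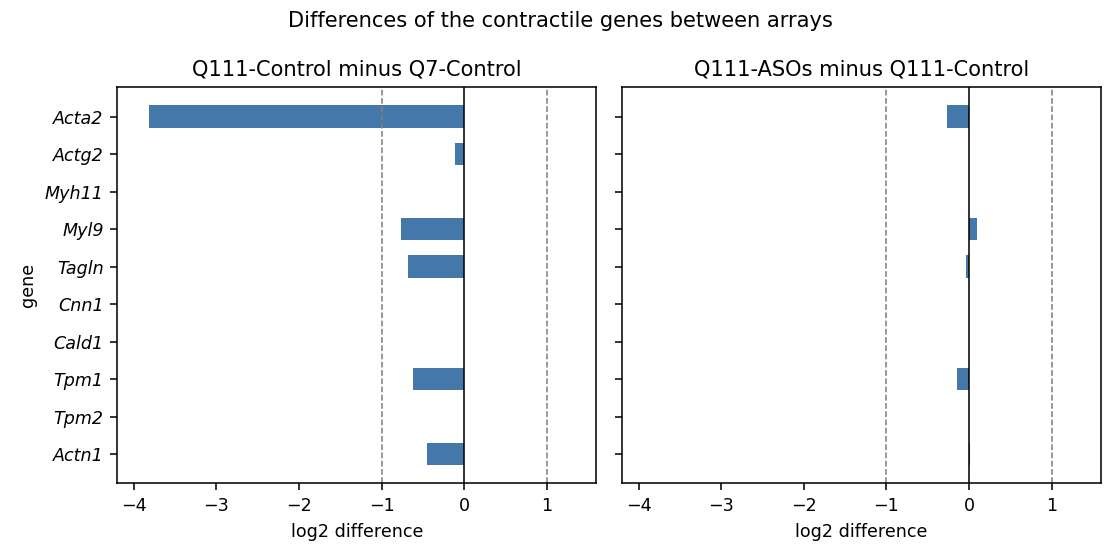
Log2 difference of each contractile gene for Q111-Control minus Q7-Control (left) and Q111-ASOs minus Q111-Control (right), with dashed lines at 2-fold in either direction. On the left only Acta2, at -3.82, passes the line, 5 genes lie between -0.77 and -0.11, and 4 are at 0.00, while on the right all 10 lie between -0.26 and 0.10.

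The upstream sequences of the lower genes are shown because the motifs that SRF and TEAD factors read are known from the promoters of such genes. RefSeq (build GRCm38.p6) gave an upstream window for 7 of the 10 genes, Acta2, Myl9, Tpm1, Actn1, Tpm2, Cnn1 and Cald1, the last with windows at 2 start sites. Each sequence below is the 250 bases before the annotated start, 5′ to 3′ on the strand of the gene. Capitals mark matches to the CArG box, allowing at most 1 G or C among the 6 inner bases, and to the MCAT element (CATTCC on either strand), which TEAD factors bind. The Acta2 window is chr19:34255374-34255623 on the minus strand, that of Myl9 chr2:156775214-156775463 on the plus strand, that of Tpm1 chr9:67049214-67049463 on the minus strand and that of Actn1 chr12:80260364-80260613 on the minus strand.
Acta2: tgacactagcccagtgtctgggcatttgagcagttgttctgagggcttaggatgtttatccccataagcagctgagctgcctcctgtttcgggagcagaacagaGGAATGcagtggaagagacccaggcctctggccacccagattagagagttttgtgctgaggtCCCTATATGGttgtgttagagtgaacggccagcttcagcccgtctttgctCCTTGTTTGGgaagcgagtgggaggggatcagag
Myl9: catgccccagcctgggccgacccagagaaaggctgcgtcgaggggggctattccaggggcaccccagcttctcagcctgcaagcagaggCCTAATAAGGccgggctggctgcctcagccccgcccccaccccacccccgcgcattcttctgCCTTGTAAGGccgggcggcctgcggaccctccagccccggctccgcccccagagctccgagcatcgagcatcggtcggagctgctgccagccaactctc
Tpm1: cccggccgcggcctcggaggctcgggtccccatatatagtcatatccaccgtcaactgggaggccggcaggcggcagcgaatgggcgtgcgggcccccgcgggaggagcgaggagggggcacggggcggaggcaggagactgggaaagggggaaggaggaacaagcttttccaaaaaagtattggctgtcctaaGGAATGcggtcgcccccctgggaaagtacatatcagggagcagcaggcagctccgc
Actn1: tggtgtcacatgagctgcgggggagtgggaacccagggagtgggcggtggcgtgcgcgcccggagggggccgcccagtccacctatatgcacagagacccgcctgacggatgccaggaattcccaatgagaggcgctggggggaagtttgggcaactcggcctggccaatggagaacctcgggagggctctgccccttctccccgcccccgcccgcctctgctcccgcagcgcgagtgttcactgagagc

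The Acta2 window held a pair of CArG-like matches, which begin 84 and 34 bases before the start and carry 1 G or C inside, and an MCAT element beginning 146 bases before it. Myl9 held a CArG box without an inner G or C, beginning 161 bases before the start, and a second with 1 at 99 bases. Tpm1 held an MCAT element beginning 56 bases before the start, and Actn1 held neither motif. CArG matches with at most 1 inner G or C were thus in 2 of the 8 windows of the 7 genes. Of the 32851 upstream windows in the table, 8.59% held one. The stricter match was in 1 of the 8, against 1.47%. An MCAT element was in 3 of the 8 windows (of Acta2, Tpm1 and Cald1), against 12.6% of all windows. The TATA box (TATAAA on either strand) was in 1 of the 8, against 12.4%. It was in a window of Cald1, beginning 186 bases before that start site. These matches describe letters in a short window and are no evidence of binding.

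**Figure D3:**
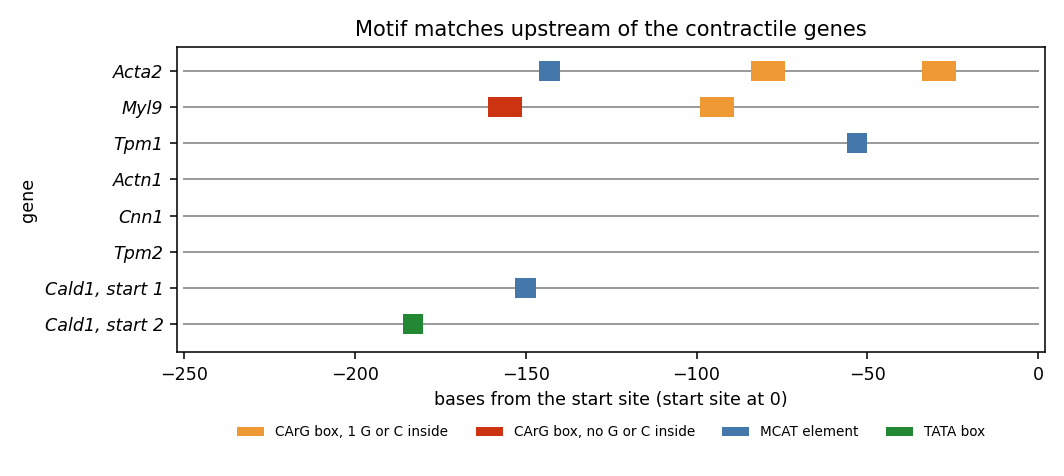
Positions of motif matches in the 250 bases before the start site (at 0) of the 7 contractile genes with a RefSeq window, of which Cald1 has a pair of start sites. Acta2 and Myl9 carry the 4 CArG matches, and the windows of Actn1, Cnn1 and Tpm2 hold no match to the motifs searched.

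Myl9, the regulatory light chain whose phosphorylation starts contraction, had a log2 signal of 7.69 in Q111-ASOs, 7.59 in Q111-Control and 8.35 in Q7-Control. It was 1.70-fold lower in Q111-Control than in Q7-Control, and with ASOs it was 0.10 above Q111-Control. Its heavy chain partner Myh11, the myosin that defines differentiated smooth muscle, had 6.34 on every array. The Myh11 signal was below 6.55, the median over genes, so the equal values do not separate a low level from no expression.

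Tagln, the actin-binding protein transgelin or SM22, had 5.85 in Q111-ASOs, 5.89 in Q111-Control and 6.57 in Q7-Control. The line difference was -0.68 on the log2 scale and the difference with ASOs was -0.03. Both STHdhQ111/Q111 arrays read Tagln below the highest signal of 7 endothelial marker genes (Pecam1, Cdh5, Kdr and others), which lay between 4.49 and 5.90 on each array without any difference between arrays. Signals of these genes of another cell type are given as a rough guide to the low end of the scale, although probes of different genes differ in brightness. With both STHdhQ111/Q111 signals of Tagln at this low end, its line difference is not read as a fold. Cnn1, the calponin of smooth muscle, had 5.82 on all 3 arrays, and Actg2 lay between 5.53 and 5.64, both inside that range.

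Among the genes with broader use, Tpm1 had a log2 signal of 9.97 in Q111-ASOs, 10.12 in Q111-Control and 10.74 in Q7-Control. It was 1.54-fold lower in Q111-Control than in Q7-Control and a further 0.14 lower on the log2 scale with ASOs, so that, as for Acta2, the Q111-ASOs array was the lowest. The other tropomyosin, Tpm2, had 9.26 on every array. Cald1, the caldesmon that blocks myosin on the filament, had 10.56 on every array. Actn1, which ties actin filaments together at focal adhesions and stress fibres, had 11.53 in Q111-ASOs, 11.52 in Q111-Control and 11.97 in Q7-Control, a line difference of 1.37-fold. The arrays read whole transcripts, and the smooth muscle and non-muscle splice forms of Tpm1, Cald1 and Actn1 are not separated in these values.

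**Figure D4:**
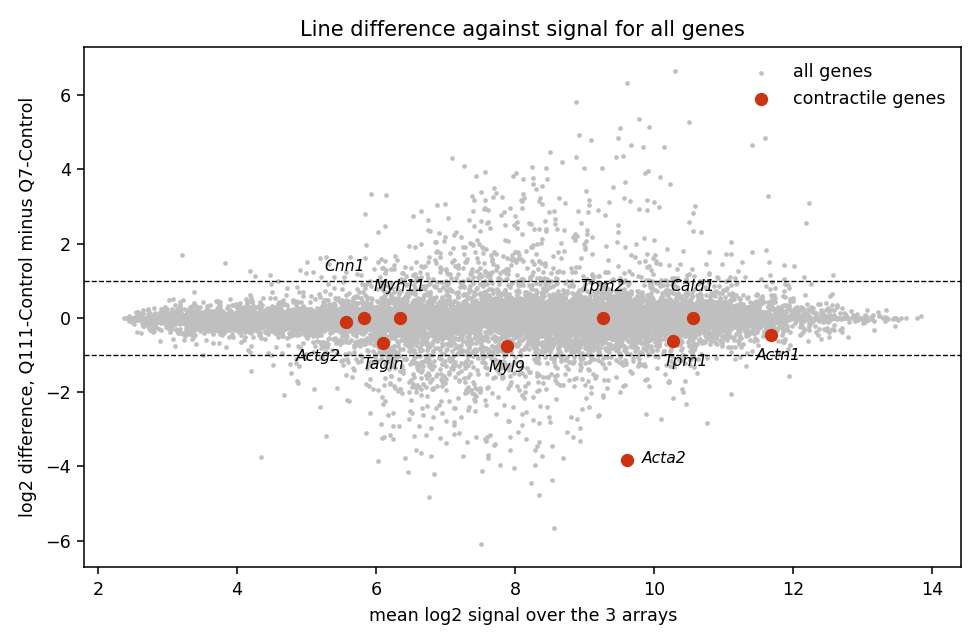
Log2 difference of Q111-Control minus Q7-Control (vertical) against the mean log2 signal over the 3 arrays (horizontal) for 22180 genes (grey) and the 10 contractile genes (red), with dashed lines at 2-fold. Acta2 lies at -3.82, far below the band of most genes, and the other 9 lie between -0.77 and 0.00.

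The signals go only partly with a smooth muscle identity. Of the 10 genes, 4 had a mean signal below the median of all genes, namely Actg2, Myh11, Tagln and Cnn1, which are the members most particular to smooth muscle beside Acta2. Myocd, the SRF cofactor of smooth muscle, had 5.89 on all 3 arrays. The other 6 genes were at or above that median. The genes are therefore treated as a list of contractile actin genes, without a claim on cell type.

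A list of other smooth muscle differentiation genes had 19 measured genes. Of these, 3 were over 2-fold lower in Q111-Control than in Q7-Control and 0 were over 2-fold higher. Among all genes the shares were 2.53% and 2.03%, which also stand beside the counts between the lines for the lists below. Fhl1, a LIM-domain protein of muscle, had 7.55 in Q111-ASOs, 7.36 in Q111-Control and 11.14 in Q7-Control, which is 13.7-fold between the lines and nearly as large as for Acta2. Mylk, the kinase that phosphorylates the myosin light chain, had 6.30 in Q111-ASOs, 6.36 in Q111-Control and 7.71 in Q7-Control. Its log2 line difference was -1.34. Both STHdhQ111/Q111 signals of Mylk were below 6.55, the median over genes, so this difference is not read as a fold. Nexn, which encodes the actin-binding protein nexilin, had 6.67 in Q111-ASOs, 6.70 in Q111-Control and 7.78 in Q7-Control, or 2.11-fold. In each of these 3 genes both STHdhQ111/Q111 arrays lay together below Q7-Control. The intermediate filament gene Des went the other way within 2-fold, with 6.99 in Q111-ASOs, 6.99 in Q111-Control and 6.13 in Q7-Control. The median line difference of the 19 genes was -0.02, against 0.00 over all genes, and none differed over 2-fold with ASOs.

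All 13 measured non-muscle relatives of the 10 genes lay within 2-fold between the lines, with a median of -0.13. To any extent, 11 of the 13 were lower in Q111-Control, as were 6585 of all 22180 genes. So were 4198 of the 11090 genes with a mean signal no lower than that of the median gene, to which all but 1 of the 13 belong. The lines were exactly equal for 9630 of the 22180, 2712 of the 11090 and 1 of the 13, which holds the shares over all genes down. The smallest of the 11 differences was -0.01, so the 11 are not read as a shared decrease. The lowest were Tagln3 at -0.54, Tagln2 at -0.53, the acidic calponin gene Cnn3 at -0.51 and the light chain gene Myl12b at -0.46. The non-muscle myosin heavy chain gene Myh9 differed by 0.16 and Myh10 was equal on all 3 arrays. With ASOs all 13 stayed between -0.13 and 0.22.

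Among 11 measured genes for SRF and its cofactors and antagonists, Srf had 9.51 in Q111-ASOs, 9.51 in Q111-Control and 9.53 in Q7-Control, and the cofactor genes Mrtfa and Mrtfb differed by 0.01 and 0.39 between the lines, and Elk3, an antagonist of the cofactors, by -0.39. Only Klf4 and Gata6 differed over 2-fold. Klf4, a factor known to repress smooth muscle genes, had 8.27 in Q111-ASOs, 8.19 in Q111-Control and 9.85 in Q7-Control, or 3.16-fold lower in Q111-Control. Gata6, a factor of vascular smooth muscle and other mesodermal cells, had 9.22 in Q111-ASOs, 9.11 in Q111-Control and 5.97 in Q7-Control. Its log2 line difference was 3.14. The Q7-Control signal of Gata6 was below 6.55, the median over genes, so this difference is not read as a fold. None of the 11 differed over 2-fold with ASOs.

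Of 21 measured focal adhesion and actin-binding genes, 2 were over 2-fold lower in Q111-Control and 0 over 2-fold higher, with a median of 0.00. Tln2, a talin that links integrins to actin, had 7.17 in Q111-ASOs, 7.17 in Q111-Control and 9.57 in Q7-Control. Ccn2, a matrix-associated protein gene known as a target of mechanical signalling, had 8.55 in Q111-ASOs, 8.75 in Q111-Control and 10.65 in Q7-Control. These are line differences of 5.29-fold and 3.73-fold, and the next in size, Ccn1 (-0.72) and Vasp (-0.70), lay within 2-fold. The adhesion gene Vcl and the filamin gene Flna, both known SRF targets, were equal on all 3 arrays at 12.49 and 12.18. Of 14 measured genes that regulate light chain phosphorylation, Mylk was the 1 over 2-fold lower in Q111-Control and 0 were over 2-fold higher. This is the same Mylk already counted among the smooth muscle differentiation genes, whose difference is not read as a fold. Rhob (-0.64), Ppp1r14b (-0.52) and Ppp1r12b (0.38) came next. None of these genes differed over 2-fold with ASOs.

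**Figure D5:**
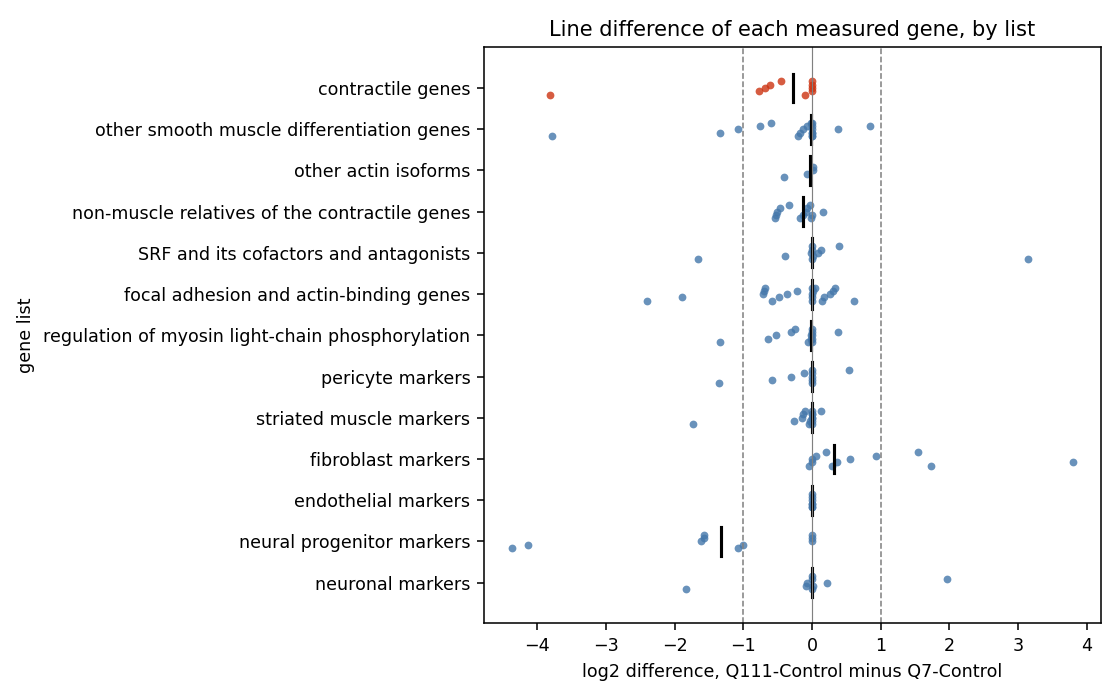
Log2 difference of Q111-Control minus Q7-Control for every measured gene, by list (rows, the contractile genes in red), with black bars at list medians and dashed lines at 2-fold. The contractile genes have a median of -0.28, neural progenitor markers one of -1.33 and fibroblast markers one of 0.33. The medians of the pathway lists lie between -0.13 and 0.00.

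Some markers of other cell types also differed between the lines, in either direction. Of 10 neural progenitor markers, 7 were over 2-fold lower in Q111-Control and 0 higher, led by Sox2 with 7.30 in Q111-ASOs, 6.96 in Q111-Control and 11.34 in Q7-Control, and by Nes with 6.28 in Q111-ASOs, 6.08 in Q111-Control and 10.21 in Q7-Control. The line differences of Pax6, Hes1, Fabp7, Prom1 and Msi1 lay between -1.62 and -1.01. On both STHdhQ111/Q111 arrays Nes, Pax6 (6.15 and 6.21) and Prom1 (4.61 on each) were below 6.55, the median over genes. Prom1, with 5.69 in Q7-Control, lay within the range of the endothelial markers on every array. The differences of Nes, Pax6 and Prom1 are therefore not read as folds, and Msi1 (-1.01) only just passed the criterion. The median signal of this list was 6.75 in Q111-ASOs, 6.64 in Q111-Control and 8.52 in Q7-Control. Of 12 fibroblast markers, the collagen genes Col1a2 (log2 difference 3.80) and Col3a1 (1.54) and the receptor gene Pdgfra (1.73) were over 2-fold above Q7-Control in Q111-Control, and 0 were over 2-fold below. The median signal of the 12 was 10.64 in Q111-ASOs, 10.30 in Q111-Control and 8.54 in Q7-Control. Gene by gene, however, the median line difference was only 0.33, and 9 of the 12 lay within 2-fold, so the list medians show no shift shared by the list. Among 10 pericyte markers, Mcam was over 2-fold lower in Q111-Control, with 6.79 in Q111-ASOs, 6.85 in Q111-Control and 8.20 in Q7-Control, while Pdgfrb was 0.54 higher on the log2 scale. The pericyte markers Rgs5, Higd1b and Abcc9 were equal on all arrays at 4.50, 4.61 and 5.86. Others had higher signals, with Pdgfrb between 11.16 and 11.77 and Cspg4 between 8.45 and 9.04. Of the 10 pericyte markers, 5 had a mean signal below the median of all genes. Among 15 striated muscle markers, Tnnt2 was over 2-fold lower in Q111-Control, with 6.52 in Q111-ASOs, 6.80 in Q111-Control and 8.53 in Q7-Control, and Myod1 and Myog lay between 6.28 and 6.97 on all arrays. Among 9 neuronal markers Tubb3 was over 2-fold lower (-1.84) and Penk over 2-fold higher (1.96) in Q111-Control, and none of 7 endothelial markers differed. Tubb3 in Q111-Control (5.95) and Penk in Q7-Control (6.00) were below 6.55, so neither difference is read as a fold. The part of these markers in the Acta2 difference was not tested, and in a culture fewer cells of a type and less RNA per cell cannot be told apart.

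The median pattern of the 10 contractile genes, a line difference of -0.28 with 0.00 for the ASOs, was common, since 562 of the 10382 genes searched (those no dimmer on average than the median gene, without predicted genes and list members) lay within a Euclidean distance of 0.1 (log2) over the pair of differences. The nearest were Hs3st3b1, Ddx28, Klhdc4, Plk4 and Sh3gl3. Around Acta2 itself no gene of the same 10382 lay within that distance and 13 lay within 0.5.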

How the data were processed

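Total RNA of 3 samples was run on Affymetrix Mouse Gene 2.0 ST arrays. The authors deposited log2 signals made with Partek. Its version and its settings for background, normalization and probe summaries were not given in the sources used here. No further scaling was applied. Rows were named through the platform annotation, and gene IDs were used to bring symbols up to RefSeq (GRCm38.p6, 23328 of 23521 rows with 1 symbol). Of 41345 rows, 1820 carry several symbols and 16004 none, and were left unnamed. For genes with several rows, the row with the highest mean of the 3 arrays was kept. Differences were Q111-Control minus Q7-Control and Q111-ASOs minus Q111-Control, counted past 2-fold. No p-value, SD between samples or interval was calculated, since each group has 1 array.

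The members and gene lists (6 pathway and 6 marker lists) were chosen with earlier results of these data known. Genes named are all members, the list genes past 2-fold, the largest line differences within a list (at most 4), and the 5 genes nearest to the members' median pattern. Srf, Mrtfa, Myocd, Myh9, Myh10, Vcl, Flna and marker genes with level signals were named after their values were seen. Some listed genes are not reported here, and Irag1 was read under its older symbol Mrvi1. The calculation was tested on simulated data. Alternatives were centred arrays, quantile normalization, the mean of a gene's rows, differences relative to Gapdh, criteria of 1.5-fold and 3-fold, a minimum signal, and all rows. Python 3.11.15, numpy 2.4.6, pandas 2.3.3 and matplotlib 3.10.9 were used.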

Additional observations from a re-analysis of the deposited data

How the results depend on the processing

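Each group has 1 array, so shifts under 0.13 on the log2 scale (the SD over genes of Q111-ASOs minus Q111-Control) and counts within 1.5 times of the reported count were read as no change. All 80 alternative values of the 10 contractile genes stayed, but those from the mean of a gene's rows, Gapdh and centring (shifts of -0.06 and 0.02) could hardly move. Acta2 lay between -3.88 and -3.82 for Q111-Control minus Q7-Control and between -0.28 and -0.23 with ASOs. Of 56 alternative list medians 54 stayed, while leaving out dim genes (mean signal under the median gene) gave line medians of -0.54 for the contractile genes and -0.20 for other smooth muscle genes. No paired analysis was possible because each group has 1 array.

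With a 1.5-fold criterion, 4 contractile genes were lower in Q111-Control (Acta2, Myl9, Tpm1 and Tagln, the last with both STHdhQ111/Q111 signals at the low end of the scale). Of the pathway lists, 12 genes were then lower and 3 higher, and of all genes 1153 were lower and 861 higher, with 34 lower and 101 higher with ASOs. With a 3-fold criterion, of all genes 254 were lower and 233 higher in Q111-Control, and 0 lower and 10 higher with ASOs. These counts differ by construction of the criterion. Over all rows, 1170 were higher in Q111-Control, and 160 lower and 182 higher with ASOs. These counts add rows without a named gene, rows with several symbols and further rows of genes already counted. Without dim genes, 0 were lower with ASOs, so all 6 genes reported as lower were dim, while the count of higher genes stayed at 23.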

Other observations

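Genes outside the lists with a pattern near that of Acta2 were looked up after its value was seen, among the same 10382 genes. The 5 nearest included Chrdl1, a secreted antagonist of BMP signalling, with a log2 signal of 5.51 in Q111-ASOs, 5.57 in Q111-Control and 9.30 in Q7-Control. Itga7, the laminin-binding integrin of muscle, had 6.91 in Q111-ASOs, 7.00 in Q111-Control and 10.97 in Q7-Control, or 15.7-fold between the lines. The others were Egln3, a prolyl hydroxylase of the oxygen response, the cell adhesion gene Cadm1 and the steroid-metabolizing gene Akr1c18. Egln3 had 6.35 in Q111-ASOs, 6.35 in Q111-Control and 10.12 in Q7-Control. Cadm1 had 6.01 in Q111-ASOs, 6.01 in Q111-Control and 9.72 in Q7-Control. Akr1c18 had 5.43 in Q111-ASOs, 5.43 in Q111-Control and 9.06 in Q7-Control. Except for Itga7, the signals of these genes on both STHdhQ111/Q111 arrays were below 6.55, the median over genes, so no fold and no order of likeness is read from them. Likeness over 3 arrays says nothing of shared control.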
